A study of Mus musculus with 8 samples.

Results

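Integrated stress and oxidative stress genes were followed in mouse mammary epithelial cells as 7 transcripts, Ddit3, Trib3, Sesn2, Nupr1, Herpud1, Hmox1 and Hspa1a. They were chosen by symbol from the 259 genes in the authors' deposited table, and all 7 were found there. That table lists genes that differed between cells given UBE1L and cells given an empty vector, so membership already used this contrast. The values below are therefore a description of the chosen genes and test nothing about them.

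The compared groups were 2 libraries of Uba7 KO cells with UBE1L and 2 libraries of Uba7 KO cells with an empty vector. Both were of the FVB strain, carried IFN in their titles and received LPS (100 ng/mL, 6 hours). The design text names the cells PyVmT/Uba7 KO, so the controls share the knockout, the IFN and the LPS with the UBE1L cells. Another 4 libraries, with IFN and no LPS, were not analysed here. UBE1L is the enzyme encoded by Uba7 that activates ISG15, a ubiquitin-like protein induced by interferon. The sources used here do not state how many lines were made with each vector, nor how IFN was given, so a difference between lines cannot be told apart from the effect of UBE1L.

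The integrated stress response begins when kinases phosphorylate the translation factor eIF2alpha, which lowers general protein synthesis while favouring translation of the transcription factor ATF4. ATF4 induces amino acid and redox genes, and under lasting stress also CHOP, which Ddit3 encodes. The unfolded protein response of the endoplasmic reticulum (ER), the NRF2 response to oxidants and the HSF1 heat-shock response are neighbouring programmes with partly shared targets. Interferon and LPS signalling can each engage the eIF2alpha kinase PKR.

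With UBE1L, 6 of the 7 transcripts were higher and 1 was lower in the authors' deposited table. The higher ones were Nupr1, Hmox1, Ddit3, Trib3, Sesn2 and Herpud1, by 1.42-fold to 1.72-fold, and the lower one was the heat-shock gene Hspa1a. Of all 259 listed genes, 83.8% were higher and 16.2% were lower in the authors' deposited table. Nothing is read from the members' split beside these shares. The median log2 fold of the 6 higher members was 0.63, against 0.72 for all 217 higher genes in the authors' deposited table. RNA was measured in bulk, so fewer cells of a type and less RNA per cell cannot be told apart. Values of single libraries are not in the columns used here, so no spread between libraries accompanies these folds.

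Promoter sequence is shown for Nupr1, Herpud1, Trib3 and Ddit3, which carry letters of an ATF4 or ER stress element, and for Hspa1a and its copy, whose likeness limits the Hspa1a value. The sequences are from RefSeq (GRCm38.p6, the C57BL/6J reference, not FVB), and 6 of the 7 members matched an entry. Hmox1 had none. Nupr1 (chr7:126625471-126625720, minus strand) and Herpud1 (chr8:94386179-94386428, plus strand) come first, with every exact motif match in capitals.
Nupr1: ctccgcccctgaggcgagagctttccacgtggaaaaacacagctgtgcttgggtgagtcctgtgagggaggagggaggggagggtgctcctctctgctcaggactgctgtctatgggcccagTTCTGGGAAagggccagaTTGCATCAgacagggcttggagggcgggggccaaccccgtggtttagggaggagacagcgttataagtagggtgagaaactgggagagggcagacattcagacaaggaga
Herpud1: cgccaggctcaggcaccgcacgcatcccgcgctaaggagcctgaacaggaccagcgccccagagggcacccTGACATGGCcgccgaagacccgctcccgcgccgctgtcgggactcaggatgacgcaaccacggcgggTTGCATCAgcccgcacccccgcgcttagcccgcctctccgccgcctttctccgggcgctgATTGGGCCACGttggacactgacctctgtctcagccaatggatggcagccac

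Both sequences hold the same 8 letters, TTGCATCA, at nearly the same distance from the start, -110 to -103 in Nupr1 and -112 to -105 in Herpud1. Read on the other strand they match TGATGNAA, the C/EBP-ATF element through which ATF4 and C/EBP factors act. Trib3 holds another match just after its start, at 15 to 22 bases, shown within 24 bases (chr2:152344031-152344054, minus strand) with the match in capitals.
Trib3: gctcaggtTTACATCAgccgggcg

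Matches were sought on both strands in windows of 250 bases before to 50 bases after each start. The C/EBP-ATF element was found in 3 of the 6 members with a window, Trib3, Nupr1 and Herpud1. It was in 3.97% of all 32851 windows and in 14 of the 237 windows (5.91%) of genes in the authors' deposited table. Herpud1 also holds ATTGGGCCACG at -52 to -42, the ER stress element II (ATTGG and CCACG with 1 base between), found in 12 of all windows (0.0365%). The antioxidant element TGACNNNGC, recognised by NRF2, was in Herpud1 at -179 and in Sesn2 at -36 (TGACAGAGC). It was in 12.4% of all windows and in 43 of the 237 windows (18.1%) of genes in the authors' deposited table. The remaining capitals in Nupr1, TTCTGGGAA, match the gamma-activated site TTCNNNGAA bound by STAT factors, which 8.30% of all windows hold. None of these matches overlap each other.

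Ddit3 held no exact match to any of the motifs. With 1 mismatch allowed it held CGTGCCGCTTTCTGATTGG at -91 to -73 on the other strand, against the ER stress element (CCAAT and CCACG with 9 bases between). This element was in 0.119% of all windows exactly and in 1.50% with 1 mismatch. The match is in capitals in the 250 bases before the Ddit3 start (chr10:127290543-127290792, plus strand).
Ddit3: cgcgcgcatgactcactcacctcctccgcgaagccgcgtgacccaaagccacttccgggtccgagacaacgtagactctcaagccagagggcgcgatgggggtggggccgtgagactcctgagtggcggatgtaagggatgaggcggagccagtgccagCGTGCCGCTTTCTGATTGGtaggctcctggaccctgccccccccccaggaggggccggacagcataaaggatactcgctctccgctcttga

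The interferon-stimulated element (GAAA and GAAA with 2 bases between), found in 3.44% of all windows, was in 0 of the 6 member windows. With 1 mismatch it was in 35.4% of all windows and again in 0 of the 6. The cAMP element TGACGTCA had 0 exact matches in the members and was in 1.79% of all windows. With 1 mismatch it was in 1 member window, that of Ddit3, and in 12.5% of all windows. A match describes these letters and is not evidence that a factor binds them in these cells, and the absence of a match concerns only this window.

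**Figure D1:**
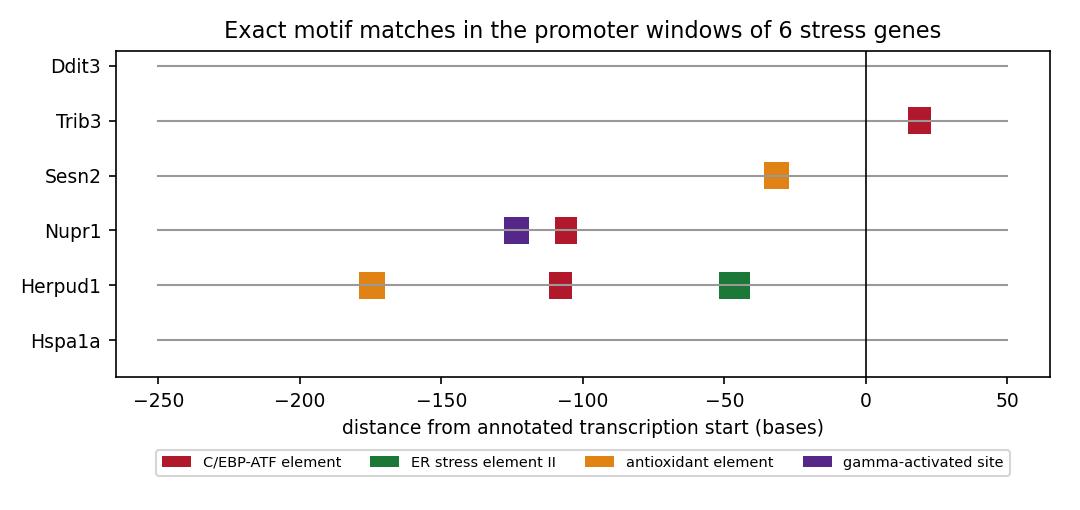
Exact motif matches in 6 stress genes, drawn by distance in bases from the annotated start (vertical line), with 1 grey line per window and 1 colour per motif. The C/EBP-ATF element lies at -110 in Nupr1, at -112 in Herpud1 and at 15 in Trib3, while Ddit3 and Hspa1a show no exact match.

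The transcription factors of the response come first among the members. Ddit3 encodes CHOP, a C/EBP-family factor induced by ATF4 that promotes cell death under prolonged ER stress. In the authors' deposited table its log2 fold was 0.70 (1.62-fold higher with UBE1L), with a likelihood ratio of 57.8 and an adjusted p of 3.43e-12. Nupr1, a small stress-induced chromatin-associated protein, had the largest fold of the 7. It was 1.72-fold higher (log2 fold 0.78, adjusted p 1.38e-22) with a mean abundance of 5.87 log2 CPM (CPM being counts scaled to library size) in the authors' deposited table. Nupr1 ranked 89 by size of fold among the 217 higher genes and Ddit3 ranked 115, so both lay near the middle of that order.

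Trib3 encodes a pseudokinase that CHOP and ATF4 induce and that can restrain ATF4 and AKT. It was 1.48-fold higher (log2 fold 0.57, adjusted p 2.28e-15) in the authors' deposited table. Its mean abundance there was 7.07 log2 CPM. Sesn2 encodes sestrin 2, an inhibitor of mTORC1 that senses leucine and responds to ATF4, NRF2 and p53. In the authors' deposited table it was 1.46-fold higher (log2 fold 0.54, adjusted p 3.04e-06) at 4.37 log2 CPM. Sesn2 had the smallest likelihood ratio among the 6 higher members, 28.5.

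Herpud1 encodes an ER membrane protein that helps to assemble the machinery of ER-associated degradation. It was 1.42-fold higher (log2 fold 0.51, adjusted p 5.45e-12) in the authors' deposited table. Herpud1 lay just inside the table's fold limit, ranking 209 of the 217 higher genes by fold. The smallest rise in the authors' deposited table, in Chchd10, was 0.50 log2 units, and no gene below the limit is listed. Hmox1 encodes heme oxygenase, which breaks heme down to biliverdin, iron and carbon monoxide and is a classical target of NRF2. It was 1.66-fold higher (log2 fold 0.74) in the authors' deposited table. With a likelihood ratio of 132 and an adjusted p of 8.13e-28 there, Hmox1 had the smallest p of the 7 and ranked 10 of the 259 genes by p.

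Hspa1a, an inducible cytosolic HSP70 chaperone driven by HSF1, was 1.58-fold lower with UBE1L (log2 fold -0.66) in the authors' deposited table. Its deposited adjusted p of 0.000260 was the largest of the 7, at a mean abundance of 3.89 log2 CPM. The value is uncertain, because 1761 of its 2918 distinct stretches of 50 bases (60.3%, the length of a read) also occur in transcripts of other genes. Of these, 1716 occur in its neighbouring copy Hspa1b, which is not listed in the authors' deposited table. Among the other 6 members only Nupr1 shared any stretches with genes of another symbol, 0.686% of its own. The symbol Ddit3 covers more than 1 gene entry, and sequence shared between those entries was not counted. Hspa1a and Hspa1b were alike before their starts too, with 4 differences in 300 bases (98.7% identity). Counted from 1 at the 5′ end of the window, with Hspa1a first, these were C44T, T47C, T249G and C276T. The 250 bases before each start are given with the differing bases in capitals, Hspa1a at chr17:34972157-34972406 and Hspa1b at chr17:34959239-34959488, both on the minus strand.
Hspa1a: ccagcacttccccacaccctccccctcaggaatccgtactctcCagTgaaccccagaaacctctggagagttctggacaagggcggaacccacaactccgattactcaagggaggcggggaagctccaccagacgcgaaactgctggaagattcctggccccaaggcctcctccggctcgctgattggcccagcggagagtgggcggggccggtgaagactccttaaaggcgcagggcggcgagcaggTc
Hspa1b: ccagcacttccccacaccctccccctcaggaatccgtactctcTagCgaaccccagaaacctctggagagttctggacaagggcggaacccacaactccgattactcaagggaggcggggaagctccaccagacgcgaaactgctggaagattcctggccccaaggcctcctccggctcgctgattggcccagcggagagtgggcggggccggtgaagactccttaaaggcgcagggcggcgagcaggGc

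Heat shock elements were searched as 3 blocks of alternating GAA and TTC, starting with either and with 2 bases between, which 0.603% of all windows held exactly. Hspa1a had no exact match. With 1 mismatch, which 7.22% of all windows allowed, it held the overlapping runs GAAACTGCTGGAA at -114 to -102 and TGCTGGAAGATTC at -109 to -97.

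More reads lay behind the members than behind most genes listed with them, on a scale that is not corrected for length. Their median was 5.58 log2 CPM, against 2.95 for all 259 genes in the authors' deposited table. A level of 4 log2 CPM was reached by 6 of the 7 and by 74 of the 259. Among the 64 higher genes at that abundance the median log2 fold was 0.62 in the authors' deposited table. Nupr1, Hmox1 and Ddit3 were above this median, and Trib3, Sesn2 and Herpud1 were below it.

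**Figure D2:**
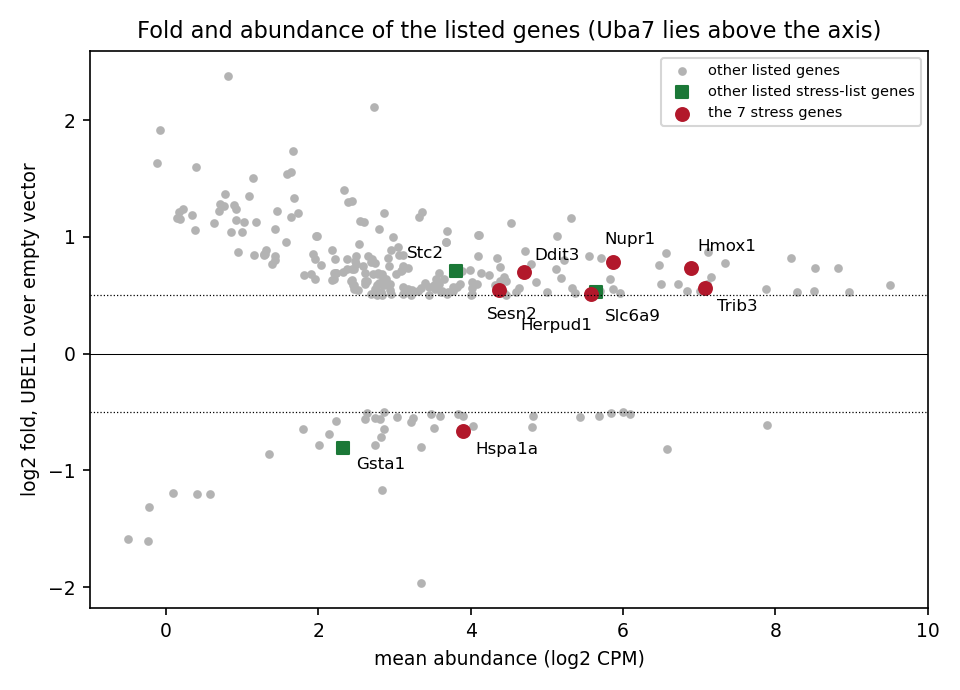
Log2 fold (UBE1L over empty vector) against mean abundance in log2 CPM for the genes of the authors' deposited table, with the 7 stress genes in red, 3 other genes of the stress lists in green and dotted lines at the fold limit of 0.5. Except for Hspa1a at 3.89, the stress genes lie at 4.37 to 7.07 log2 CPM, where few listed folds exceed 1.

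Levels of different genes were compared per length, as CPM per kilobase of the longest annotated coding transcript (GENCODE M21). On this scale Hmox1 was at 75.5, Nupr1 at 70.3 and Trib3 at 66.4. Ddit3 was at 29.2 and Herpud1 at 24.6, while Sesn2 was at 5.96 and Hspa1a at 5.01. The ends of this order were 15.1-fold apart. Its low end, Hspa1a, is uncertain, since 60.3% of its stretches also occur in transcripts of other genes. These levels are means over libraries left unnamed in the headers and carry no spread, so neighbours in this order cannot be told apart by error.

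**Figure D3:**
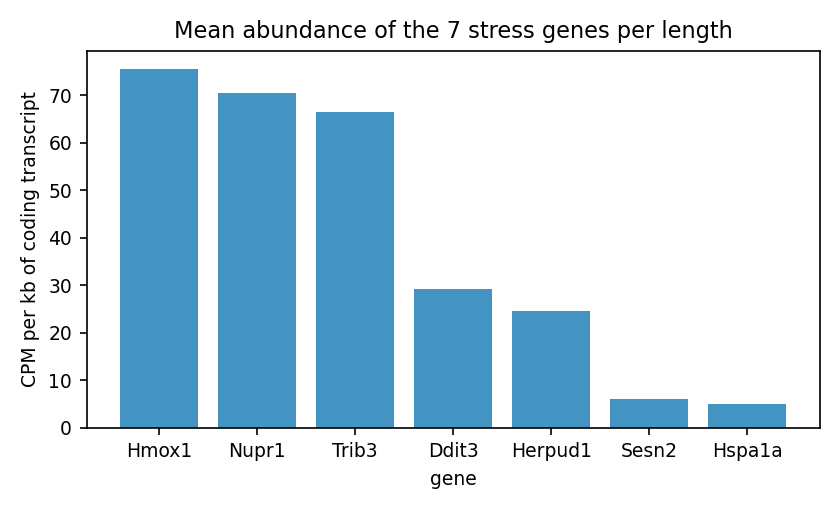
Mean abundance of the 7 stress genes (1 bar each) as CPM per kilobase of the longest coding transcript, on an axis that starts at 0 and with no error available. Hmox1, Nupr1 and Trib3 lead per length, at 75.5, 70.3 and 66.4.

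Among the other genes of these pathways few were listed. The 7 stress lists hold 143 genes, the members included, and 10 of these are in the authors' deposited table, 8 higher and 2 lower with UBE1L. That is 6.99% of the 143, a share that holds the members chosen for being listed, and without them 3 of 136 (2.21%) were listed. The number of genes tested is not given. The adjusted p-values imply ranks up to 2342, so at least that many were tested and the 259 listed genes were at most 11.1% of them. Each adjusted p equals p times a constant divided by the rank, and if this constant, 6413, does not exceed the number tested, the listed genes were at most 4.04%. How many of the 143 were tested is not known, and nothing is read from these shares. An absent gene may have been untested or may have missed the limit on fold or on p.

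The list of ATF4 and CHOP targets had 6 of 34 genes listed, a count that holds members chosen for being listed. Without the members, 2 of 30 were listed. All 6 were higher, as were 83.8% of all genes in the authors' deposited table. Their median log2 fold was 0.63, beside 0.72 for all 217 higher genes there. The 2 that are not members were Stc2 and Slc6a9. Stc2, the secreted glycoprotein stanniocalcin 2, was 1.64-fold higher (log2 fold 0.71, adjusted p 1.66e-06) in the authors' deposited table. Slc6a9, a glycine transporter, was 1.44-fold higher (log2 fold 0.53, adjusted p 8.03e-14) in the authors' deposited table. The other 28 are not listed, among them Atf4, Atf3, Asns (asparagine synthetase), Chac1 (a glutathione-degrading enzyme) and Ppp1r15a, the CHOP-induced subunit that directs eIF2alpha dephosphorylation. None of the 7 eIF2alpha kinases, phosphatase subunits and eIF2alpha itself was listed, and none of 8 partners and death effectors of CHOP and TRB3.

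In the list of ER chaperones and degradation genes Herpud1 was the 1 of 26 listed, and neither Hspa5 (BiP) nor Xbp1 was. Of 30 NRF2 and oxidative stress genes, 2 were listed, Hmox1 higher and Gsta1 lower. In the authors' deposited table Gsta1, a glutathione S-transferase, had a log2 fold of -0.81 (adjusted p 0.0114) at 2.33 log2 CPM. It is uncertain, since 90.5% of its stretches recur in other genes. The NRF2 targets Nqo1, Gclm, Srxn1 and Txnrd1 are not listed. Hspa1a was the 1 of 21 heat-shock genes listed, and Sesn2 the 1 of 20 sestrins and p53 targets, without Cdkn1a or Mdm2.

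**Figure D4:**
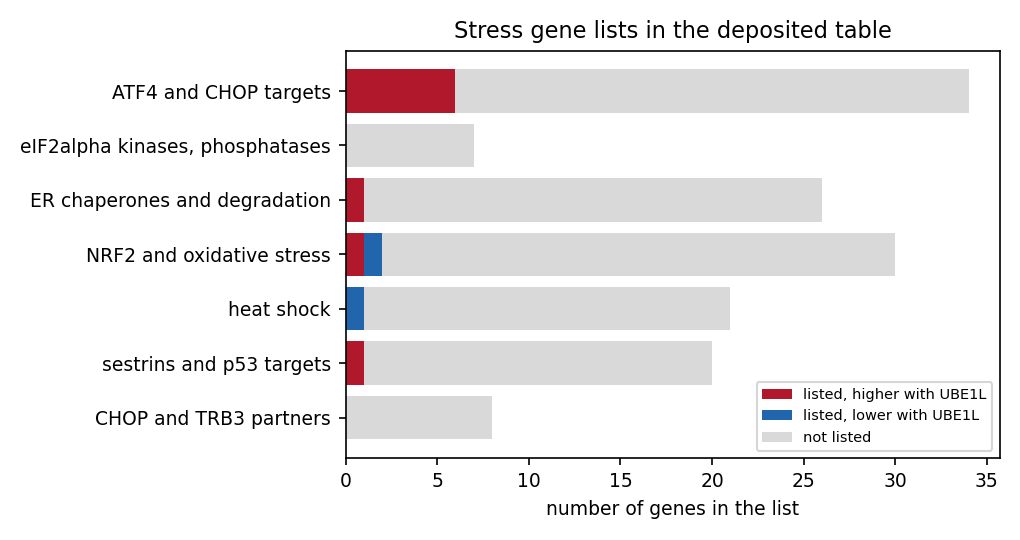
Number of genes per stress list that are listed as higher (red), listed as lower (blue) or not listed (grey) in the authors' deposited table for UBE1L over empty vector. The ATF4 and CHOP list has 6 of 34 listed with the members, which were chosen for being listed, and 2 of 30 without them. Each of the other lists has at most 2 with the members and at most 1 without them.

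The genes nearest to each member in fold and abundance together were named as a description of the single comparison. Herpud1 lay closest to Slc6a9, at 0.0673 log2 units, and Trib3 to the interferon-induced GTPase genes Tgtp1 (0.0374) and Iigp1 (0.0689). The nearest to Ddit3 were Phf11d and Zfp358, to Sesn2 Boc and Dhrs9, to Nupr1 Tnfaip2 and Ceacam1, to Hmox1 Fgfbp1 and Wfdc18, and to Hspa1a Pdgfc and Dlk2. For Herpud1 the other was Ifi47. Tgtp1 and Ceacam1 are uncertain, with 81.2% and 30.4% of their stretches shared. Nearness in a plane of 2 values from 1 comparison says nothing on shared control.

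Uba7 itself was 52.7-fold higher in UBE1L cells in the authors' deposited table, the direction that the labels give. Of 17 mammary epithelial markers 2 were listed, Kit at 1.02 and Cldn4 at 0.82 log2 units, both rises in the authors' deposited table. Of 9 fibroblast markers 3 were listed, Col3a1 at 0.82, Col1a1 at 0.52 and Dcn at 0.51, all higher in the authors' deposited table. Of 10 macrophage and leukocyte markers 0 were listed. The levels of markers that are not listed are not known here, so the label of the cells could not be checked against them, and the part of these markers in the stress gene values was not tested.

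Most folds in the table point one way, and a shift in scaling bears on every member. A scaling offset of 0.277 log2 units would leave equally many listed genes past 0.777 log2 units in either direction, Uba7 left out. The table is not balanced at the fold limit of 0.5 itself. There 90 higher listed genes, Uba7 included, would still pass, and genes that would newly pass below are not listed. After subtracting the offset, 1 of the 6 higher members, Nupr1 at 0.50, would still pass the fold limit, and Hspa1a would stand at -0.94. Hmox1 would stand at 0.46, Ddit3 at 0.42, Trib3 at 0.29, Sesn2 at 0.27 and Herpud1 at 0.23. That these stay above 0 was fixed in advance, since every listed rise is at least 0.50 log2 units and the offset is smaller. The offset takes the excess of rises as unreal and is no estimate of scaling error.

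**Figure D5:**
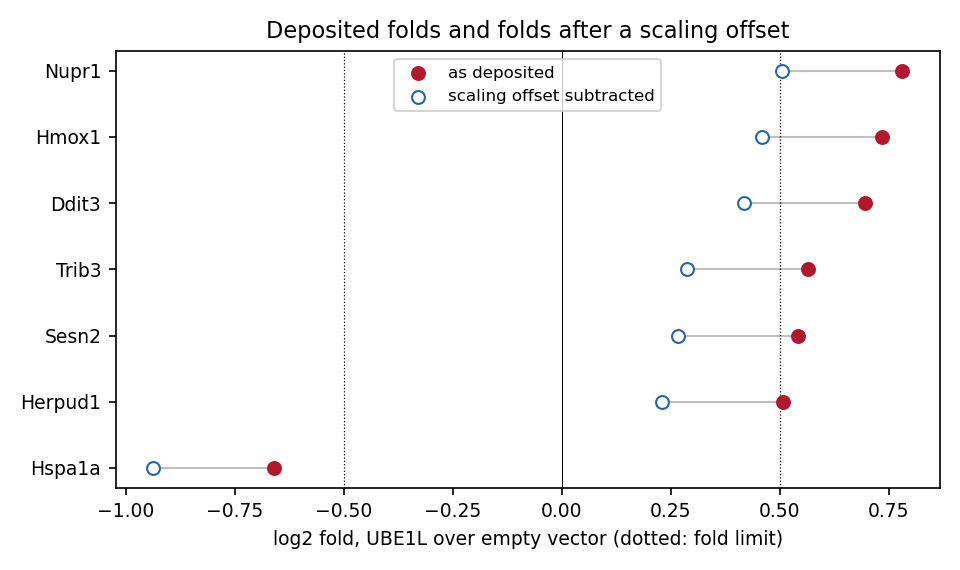
Log2 folds of the 7 stress genes (UBE1L over empty vector) as in the authors' deposited table (red) and with the scaling offset of 0.277 subtracted (open blue), with dotted lines at the fold limit of 0.5. No listed gene could change its sign, since every listed fold is at least 0.50 in size and the offset is smaller. Of the 6 higher genes Nupr1 stays at the limit.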

How the data were processed

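RNA from mammary epithelial cells was made into stranded mRNA libraries and sequenced as single reads of 50 bases, per the labels' protocols. The submitters' processing notes name Trimmomatic 0.36, Salmon 0.9.1 and edgeR without saying what each did. Build, annotation, filters and model: not given in the sources used here. The log2 fold change and the mean log2 CPM were used as deposited by the authors, with base 2 taken from edgeR's column names. The likelihood-ratio score and its p-value were deposited by the authors, and the p-value equals the chi-square tail with 1 degree of freedom to within a relative 6.60e-13. The adjusted p-value was used as deposited, under a header that names Bonferroni as well as FDR. The depth of the libraries is unknown here, and no counting interval can be given. Labels do not say whether the 2 libraries of a group were separate cultures, so p-values may measure technical spread only.

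No test was run, because the table holds only the authors' comparison, and the planned fit on counts was not possible. Members and lists were chosen with earlier results of these data known. Named genes are the 7 members, other listed genes of the stress lists, the 2 listed genes nearest to each member, Uba7, marker genes and near-identical copies. Chchd10 was named after its value was seen, as were the unlisted genes given as examples. Shared sequence was counted between genes of different symbols, over all 50-base stretches of GENCODE M21 transcripts on the same strand. A gene with 20% or more is called uncertain. Motifs were matched by letter in RefSeq promoter windows. Both searches, and the offset, were tested on simulated data. Ranks come from the unadjusted p divided by the adjusted p, which times 1 constant gives a whole number for every gene but Uba7 to within 4.35e-10. Python 3.11.15, pandas 2.3.3, scipy 1.17.1 and matplotlib 3.10.9 were used.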

Additional observations from a re-analysis of the deposited data

How the results depend on the processing

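With an adjusted p under 0.01 the members stayed at 6 higher and 1 lower, and the stress list genes at 8 higher, but 1 lower in place of 2, as Gsta1 dropped out. With log2 folds required to reach 1 in size, 0 members and 0 list genes remained in either direction. With the scaling offset subtracted, 1 member and 1 list gene stayed higher past the limit, and 1 member and 2 list genes lower. Requiring 4 log2 CPM left 6 members and 7 list genes higher and 0 lower in both, and dropping genes whose stretches are shared to 20% or more left 6 and 8 higher and again 0 lower. Matching by synonyms changed no count. Except for the offset, these settings only select among deposited values, so the lower counts follow from their construction. With 1 mismatch allowed, the cAMP element was in 1 member window, the ER stress element in 2 and the heat shock element in 1, each against 0 exactly. No paired analysis was possible because single libraries have no values in the deposited table. For that reason, fits with other scaling, filters, tools or left-out libraries were not run, and the effect of depth could not be measured.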

Other observations

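Other genes near these programmes were seen in the authors' deposited table and named after their values were known. Gsta3, a glutathione S-transferase, was 2.25-fold higher with UBE1L (log2 fold 1.17, adjusted p 0.00145) there, opposite in sign to Gsta1, and shares 0.273% of its stretches with other genes. Stc1, the paralog of Stc2, stands in the authors' deposited table as 2.01-fold higher (adjusted p 0.00183). Creb3l1, an ER-anchored transcription factor released by regulated proteolysis, was 1.65-fold higher (log2 fold 0.72, adjusted p 0.0151) in the authors' deposited table. All had mean abundances of 1.64 to 2.38 log2 CPM there.

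An approximate standard error can be had by dividing the size of a deposited log2 fold by the square root of its likelihood ratio. It rests on the authors' model and is not a spread between libraries. It was 0.0639 for Hmox1, 0.0658 for Trib3, 0.0673 for Herpud1, 0.0752 for Nupr1, 0.0914 for Ddit3, 0.102 for Sesn2 and 0.155 for Hspa1a. The approximate 95% intervals ran from 0.63 to 0.93 for Nupr1, from 0.61 to 0.86 for Hmox1 and from 0.52 to 0.87 for Ddit3. They ran from 0.44 to 0.69 for Trib3, from 0.34 to 0.74 for Sesn2 and from 0.38 to 0.64 for Herpud1, and from -0.96 to -0.36 for Hspa1a. Each higher member's interval overlapped that of its neighbour in the order of folds, so that order is not resolved step by step. The interval of Herpud1 included values smaller in size than the fold limit of 0.5, as did those of Trib3, Sesn2 and Hspa1a. The genes were listed for passing that limit, so these intervals need not have 95% coverage.

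The promoter windows of the 6 members with an entry had GC contents of 58.3% to 68.3%, against a median of 52.7% over all windows. The C/EBP-ATF element was in 0 windows of the other listed stress genes Stc2, Slc6a9 and Gsta1.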
